A study of Mus musculus with 6 samples.

Results

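Itga5 and Itgb2 encode chains of different integrins, the adhesion receptors that pair an alpha with a beta chain at the cell surface. They were chosen by gene name, and both were found among the 99 genes of the deposited table. Both messages were higher in B16F10 cells, a mouse melanoma line, after MTyr-OANPs than in untreated cells. Itga5 was an abundant message that rose 1.60-fold, and Itgb2 was a scarce one that rose 4.0-fold. The comparison had 3 libraries of cells given MTyr-OANPs for 48 h and 3 libraries of cells with no treatment, and the labels call the cells of both groups wild type. MTyr-OANPs is a code of the submitters that is not expanded here, and the labels give no vehicle group. The design text calls the libraries biological replicates but does not say how the cultures were separated, so each p-value reflects only how far these libraries vary.

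Integrins link the cell to its matrix or to other cells, and their short cytoplasmic tails bind adaptor proteins that connect them to actin. The Itga5 chain pairs with the Itgb1 chain to make the main fibronectin receptor of many adherent cells. The Itgb2 chain pairs with leukocyte alpha chains such as those of Itgal and Itgam, which bind ICAM ligands or complement, and is known mainly from blood cells. None of these partner genes is among the 99 genes, so the partners of both chains were not analysed here. The tails are the parts through which the chains reach the cytoskeleton. The last 120 coding bases of each chain, stop codon included, are shown to tell the chains apart. That length is fixed, so the stretches are not exactly the tails, and the Itga5 stretch begins ahead of its membrane-proximal motif. They come from GENCODE M21 transcripts on GRCm38. The Itga5 stretch lies in exons 29 and 30 of 30 on chromosome 15, between 103345269 and 103345987 on the minus strand, and the Itgb2 stretch in exons 15 and 16 of 16 on chromosome 10, between 77564748 and 77565240 on the plus strand. Capitals mark the codons of the membrane-proximal motif shared by alpha chain tails in Itga5. In Itgb2 they mark the codons of the 2 NPxF motifs of its tail, a type of motif that binds adaptors of the talin and kindlin kind in beta chains.
Itga5 coding end: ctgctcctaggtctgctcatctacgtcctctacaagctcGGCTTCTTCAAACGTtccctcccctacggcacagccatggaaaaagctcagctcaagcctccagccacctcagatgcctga
Itgb2 coding end: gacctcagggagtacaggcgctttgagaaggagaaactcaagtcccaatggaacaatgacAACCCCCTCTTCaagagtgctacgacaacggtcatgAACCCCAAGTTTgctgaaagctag

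Itga5 spans 103344286 to 103366763 on chromosome 15 and Itgb2 spans 77530252 to 77565686 on chromosome 10 (GRCm38, as the table gives them). No exon of either gene overlapped an exon of another gene in GENCODE M21. Dividing count by FPKM and depth gave a gene length of 4932.5 to 4933.5 bp for Itga5 over the 6 libraries. The union of its annotated exons is 4933 bp long. For Itgb2 the same quotient ran from 3052 to 3090 bp, beside an exon union of 3052 bp. The values of both genes are therefore totals over all annotated exons, and no isoform can be told apart. Of 3339 distinct stretches of 75 bp in Itgb2 transcripts, 7 also occurred in the transcripts of the gene Gm14699, and none of the 5003 of Itga5 occurred in another gene.

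Itga5 stood at 50.0, 50.0 and 49.9 FPKM (fragments per kilobase of gene, scaled to library depth) in MTyr-OANPs libraries 1, 2 and 3, against 30.8, 32.5 and 30.6 FPKM in untreated libraries 1, 2 and 3. The treated libraries lay close together, all above every untreated library, and the groups did not overlap. The means were 50.0 ± 0.0810 FPKM with MTyr-OANPs and 31.3 ± 1.04 FPKM untreated (SD, n = 3 each). The counts behind them were 16634, 20962 and 20974 in treated libraries 1, 2 and 3 and 12670, 12337 and 11971 in untreated libraries 1, 2 and 3. The log2 fold change was 0.68 (SE 0.03, edgeR's quasi-likelihood test, Benjamini-Hochberg adjusted p = 5e-14), and Itga5 was higher in all 3 treated libraries.

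Itgb2 stood at 1.54, 1.56 and 1.75 FPKM in MTyr-OANPs libraries 1, 2 and 3, against 0.249, 0.521 and 0.442 FPKM in untreated libraries 1, 2 and 3. The groups did not overlap, and untreated library 1 was the lowest of all 6. The means were 1.62 ± 0.115 FPKM with MTyr-OANPs and 0.404 ± 0.140 FPKM untreated (SD, n = 3 each). The log2 fold change was 2.00 (SE 0.33, edgeR adjusted p = 1.7e-08). That p-value draws on the spread of all 53 tested genes, while the SE uses the values of Itgb2 alone. An exact permutation test of log2 FPKM over libraries gave p = 0.1 for Itgb2 and p = 0.1 for Itga5. With 3 libraries in each group that test can give no smaller p. The edgeR test took genes with a mean of at least 1 FPKM over all 6 libraries, and Itgb2 passed that minimum only through its treated libraries. With no minimum its log2 fold change was also 2.00 (edgeR adjusted p = 2.5e-15 over 83 genes).

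Calls were common in this table, and those of the 2 chains are to be read against that. edgeR called 83.0% of the 53 tested genes, 37.7% as higher and 45.3% as lower after MTyr-OANPs. In 84.9% of them the groups were apart, in 39.6% with the treated libraries higher. With no FPKM minimum 61.4% of 83 genes passed, and 27.7% passed as higher. A call shared with most genes is no result particular to the integrin chains.

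**Figure D1:**
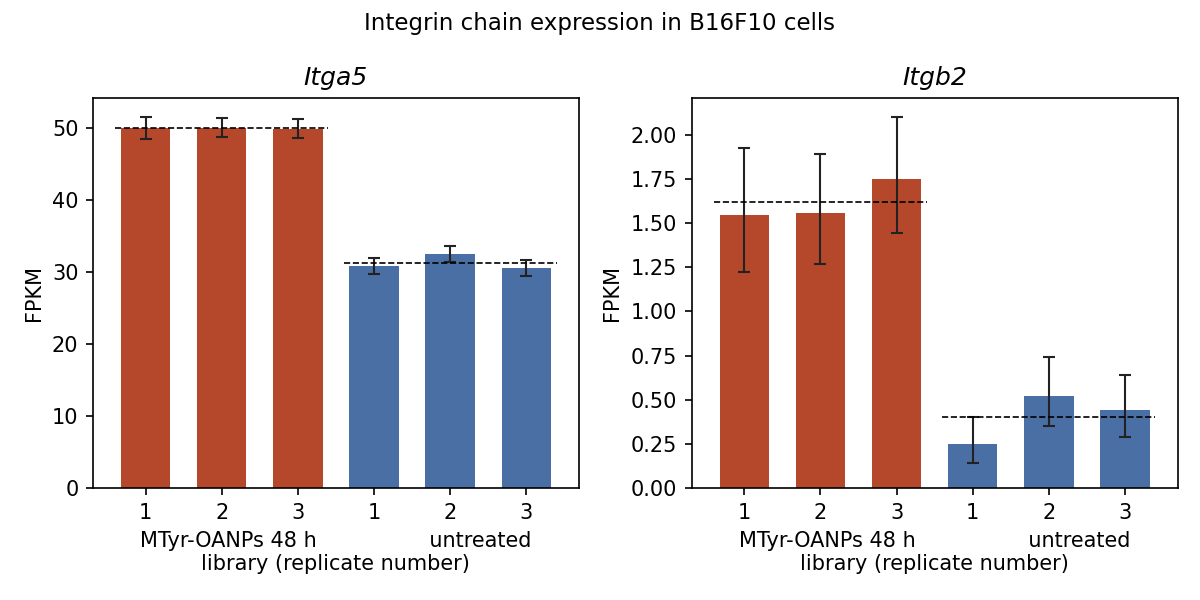
FPKM of Itga5 (left) and Itgb2 (right) in each library, MTyr-OANPs in red and untreated in blue; dashed lines are group means, and whiskers are 95% exact Poisson intervals that take 4 counts as 1 event. The treated libraries of Itgb2 lie between 1.54 and 1.75 FPKM, above the highest untreated library at 0.521 FPKM.

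The counts of Itgb2 were low: 318, 404 and 456 in treated libraries 1, 2 and 3, and 64, 123 and 108 in untreated libraries 1, 2 and 3. Low counts of the table tended to come in steps of 4, so 1 count need not be 1 read pair. Taking each count as an event, the 95% exact Poisson interval of untreated library 1 was 0.191 to 0.317 FPKM and that of untreated library 2 was 0.433 to 0.622 FPKM. Taking 4 counts as 1 event, the intervals were 0.142 to 0.404 and 0.354 to 0.741 FPKM, and they overlapped. On that same basis the lowest treated interval began at 1.22 FPKM, above the highest untreated upper bound of 0.741 FPKM. Such intervals cover counting error only.

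Between the MTyr-OANPs libraries Itga5 was the steadiest of the 53 tested genes. The coefficient of variation (CV, SD over mean) of Itga5 was 0.162% over the treated libraries and 3.31% over the untreated ones. Counting error alone would give 0.716% at the treated counts, or 1.43% if 4 counts are 1 event, so the treated libraries lay closer together than their depth assures. A treated CV below the counting error was found in 8 of the 53 genes, and an untreated one in 2. The CV of Itgb2 was 7.12% treated and 34.7% untreated, where its counting error was 10.1%, or 20.2% if 4 counts are 1 event. That untreated CV was the highest of the 53, but Itgb2 also had the lowest untreated mean FPKM of them and was tested only through its treated libraries. The medians over the tested genes were 4.26% treated and 4.56% untreated. The look at spreads was chosen after these values were seen.

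**Figure D2:**
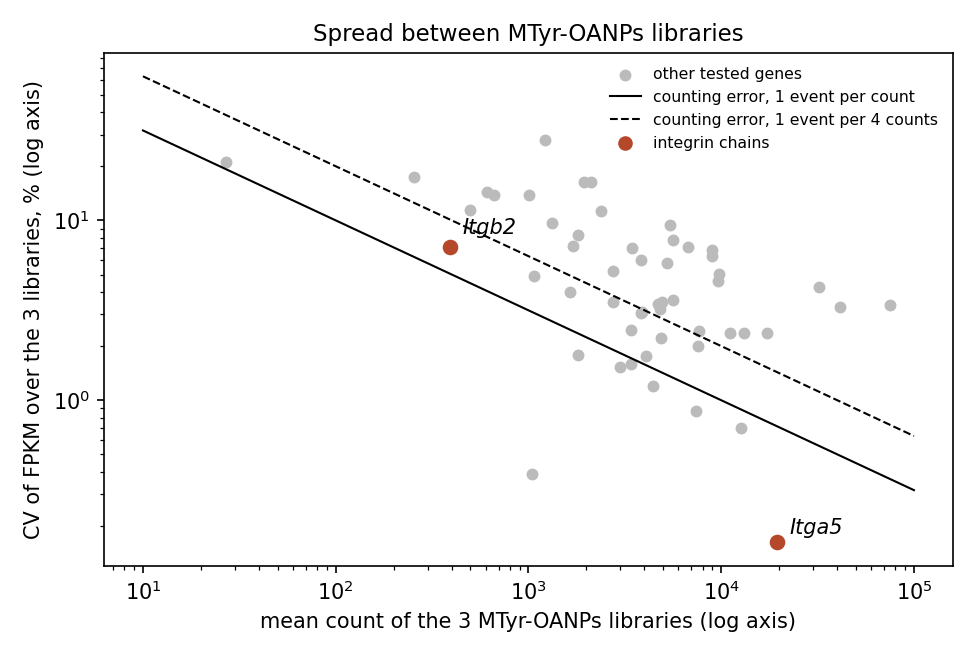
CV of FPKM over the 3 MTyr-OANPs libraries against the mean count, both on log axes, for the 53 tested genes, with the integrin chains in red and lines for counting error. Itga5 lies at 0.162%, below the solid line, and Itgb2 at 7.12%, between the lines.

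The 2 chains remained far apart in level. In the treated libraries Itga5 ranked 8 of 99 genes by mean FPKM, just above Zfp385a with 48.9 ± 2.45 FPKM (SD, n = 3), a neighbour it did not differ from beyond that spread. The next gene above, Dazap2 with 55.3 ± 0.388 FPKM (SD, n = 3), lay outside it. In the untreated libraries it ranked 13, beside Gna12 with 31.2 ± 1.08 FPKM (SD, n = 3), again within the spread. Itgb2 ranked 49 treated, next to Pemt with 1.51 ± 0.261 FPKM, and 59 untreated, next to Lck with 0.291 ± 0.0869 FPKM (SD, n = 3 each), and neither lay outside the spread. The next gene above Itgb2 in treated cells, Brat1 with 2.13 ± 0.00830 FPKM (SD, n = 3), did.

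Per length, Itgb2 came to 3.09%, 3.11% and 3.51% of Itga5 in MTyr-OANPs libraries 1, 2 and 3, against 0.807%, 1.61% and 1.45% in untreated libraries 1, 2 and 3. All treated ratios were above all untreated ones. The ratio was 2.62-fold higher after MTyr-OANPs, a difference of 1.39 on the log2 scale (SE 0.31; exact permutation test over libraries, two-sided, p = 0.1). That is the smallest p this test can give with 3 libraries in each group, so it cannot pass a threshold of 0.05. A ratio taken within a library does not depend on how libraries are scaled to each other. Itgb2 was number 3 of the 53 tested genes in log2 fold change. Its mean log2 ratio to genes with clearly smaller fold changes would also be higher, so a higher ratio is not particular to Itga5.

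In the order of log2 fold changes Itgb2 was number 3 of the 53 tested genes from the top and Itga5 number 9. The place of Itgb2 in that order depends on the FPKM minimum. In the fit with no minimum, chosen for this after the results were seen, Itgb2 was number 14 and Itga5 number 23 of 83 genes. Gpa33, Cttnbp2 and Lck also passed the test there, with larger log2 fold changes than Itgb2. Of the 51 genes called, Itgb2 was number 6 and Itga5 number 12. Among the 53 tested genes, those above Itgb2 were the nerve growth factor receptor gene Ngfr with 2.89 (SE 0.07) and the Wnt ligand gene Wnt9a with 2.71 (SE 0.11), and below it the zinc finger gene Zfp385a with 1.37 (SE 0.06) and the membrane protein gene Gpr107 with 0.93 (SE 0.04). Above Itga5 were the carboxypeptidase gene Scpep1 with 0.87 (SE 0.04) and Dbt, an enzyme gene of branched-chain amino acid breakdown, with 0.84 (SE 0.06). Below it were Mnt, a repressor that binds Max, with 0.52 (SE 0.06) and the inhibitory G protein subunit gene Gnai3 with 0.50 (SE 0.02).

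**Figure D3:**
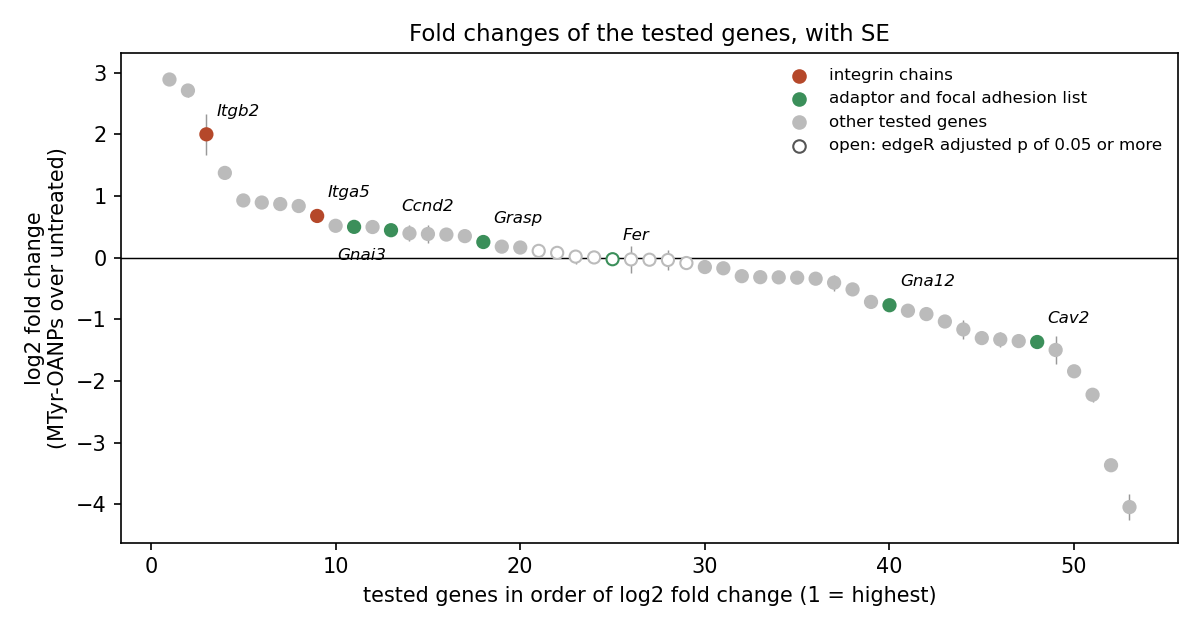
Log2 fold changes (MTyr-OANPs over untreated, with SE) of the 53 tested genes in order, integrin chains in red, genes of the adaptor and focal adhesion list in green, open points not past edgeR's test. Itgb2 lies at 2.00 and Itga5 at 0.68, while Cav2 and Gna12 of the green list lie below 0.

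Likeness of profiles was measured as the root mean square difference, over the 6 libraries, of log2(FPKM + 0.1) after each gene's untreated mean was removed. That measure mostly follows the difference in fold change, so it is not independent of the order above. The genes most like Itga5 among the other 52 were Gnai3 (0.13), Dbt (0.14), Mnt (0.14) and Tpd52l1 (0.14), in log2 units. Those most like Itgb2 among the tested genes were Zfp385a (0.38), Wnt9a (0.67), Gpr107 (0.69) and Scpep1 (0.70). The 2 chains differed from each other by 0.84. Itgb2 was thus number 34 in likeness to Itga5, and Itga5 number 8 in likeness to Itgb2. With no FPKM minimum, Cttnbp2 (0.27) and Lck (0.28) were nearer to Itgb2 than Zfp385a, while the 4 genes nearest to Itga5 were those named.

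Itgb2l, a beta 2-like integrin gene on chromosome 16 (96422288 to 96443619), is the only other integrin chain in the table. It had a count of 0 in all 6 libraries, which allows up to 3 counts in each, or up to 12 if 4 counts are 1 event. Aligned coding sequences of Itgb2 and Itgb2l were 73.0% identical, and none of the 4397 distinct stretches of 75 bp in Itgb2l transcripts occurred in another gene.

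The integrin chain list had 27 genes, of which these 3 were in the table. Of 35 integrin ligand genes, the plasma glycoprotein gene Apoh was in the table, with a count of 0 in all 6 libraries.

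Of 59 adaptor and focal adhesion genes 9 were in the table and 6 were tested, of which 3 rose, 2 fell and 1 did not pass, with a median log2 fold change of 0.11 against -0.03 over all tested genes. Over all 53 tested genes 37.7% rose and 45.3% fell, so the counts of these 6 genes do not set the list apart. The D-type cyclin gene Ccnd2 had 101 ± 3.40 FPKM with MTyr-OANPs and 74.0 ± 2.94 FPKM untreated (SD, n = 3 each; log2 fold change 0.44, edgeR adjusted p = 1e-09). Gnai3 had 67.2 ± 1.59 FPKM treated and 47.6 ± 0.787 FPKM untreated (SD, n = 3 each; edgeR adjusted p = 2e-11). Grasp, a scaffold that binds cytohesins, had 10.2 ± 0.406 FPKM treated and 8.56 ± 0.368 FPKM untreated (SD, n = 3 each; log2 fold change 0.25, edgeR adjusted p = 0.024). The call of Grasp was lost without treated library 2, treated library 3 or untreated library 1 (edgeR adjusted p = 0.077, 0.066 and 0.067), which leaves 2 of the 6 tested genes of the list that rose.

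Gna12 and Cav2 fell. Gna12, an alpha subunit of heterotrimeric G proteins, had 18.3 ± 0.640 FPKM with MTyr-OANPs and 31.2 ± 1.08 FPKM untreated (SD, n = 3 each; log2 fold change -0.77, edgeR adjusted p = 3.6e-13). It stood level with Itga5 in the untreated libraries and at well under its level in the treated ones. The caveolin gene Cav2 had a log2 fold change of -1.37 (edgeR adjusted p = 6.9e-17), with 10.3 ± 0.363 FPKM treated and 26.7 ± 1.06 FPKM untreated (SD, n = 3 each). Fer, a tyrosine kinase of cell junctions, had 9.15 ± 0.226 FPKM treated and 9.32 ± 0.219 FPKM untreated (SD, n = 3 each; edgeR adjusted p = 0.76).

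The other 3 genes of that list were under the FPKM minimum and were fitted in edgeR with no minimum. In that fit 5 of the 9 genes of the list rose and 3 fell, with a median log2 fold change of 0.25. Over all 83 genes of that fit 23 rose (27.7%) and 28 fell, with a median of -0.03. The difference between list and all genes was not tested. There the T cell kinase gene Lck rose (log2 fold change 2.13, edgeR adjusted p = 3.5e-13), as did the cortactin-binding gene Cttnbp2 (2.16, edgeR adjusted p = 4.2e-18). The growth factor gene Pdgfb fell (-0.55, edgeR adjusted p = 0.019), a call lost without untreated library 2 or 3 (edgeR adjusted p = 0.056 and 0.13). Lck had 1.30, 1.09 and 1.48 FPKM in treated libraries 1, 2 and 3, and 0.241, 0.241 and 0.392 FPKM in untreated libraries 1, 2 and 3, levels near those of Itgb2.

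**Figure D4:**
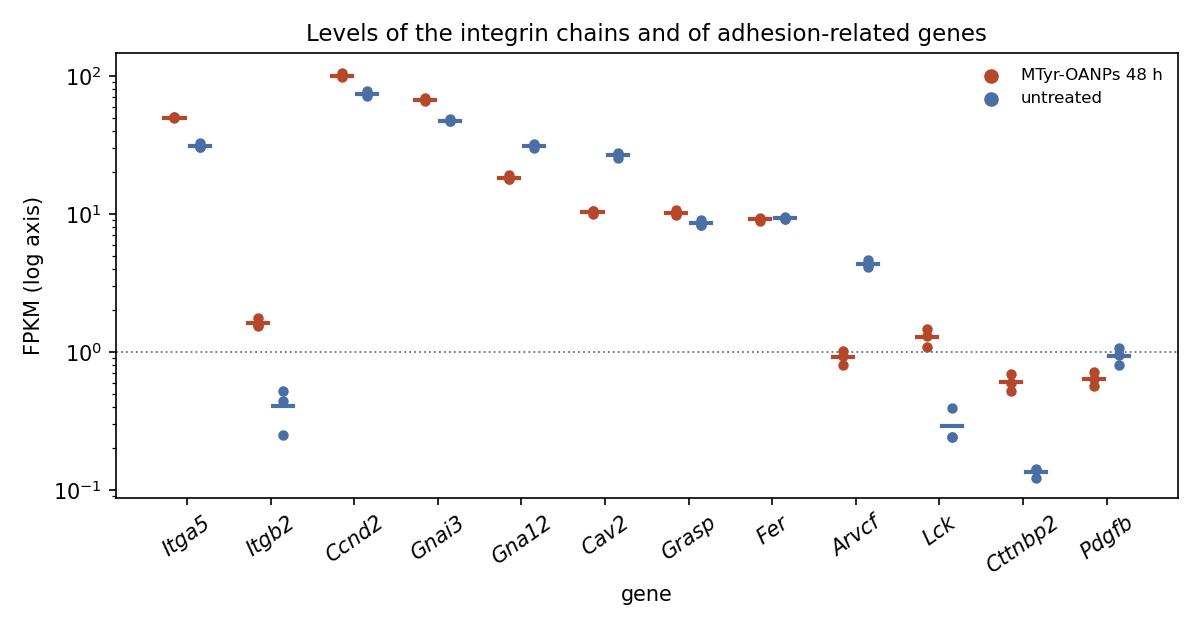
FPKM (log axis) of the integrin chains and adhesion-related genes in each library, MTyr-OANPs in red left of untreated in blue, bars at the means; the dotted line is the minimum of 1 FPKM. Itgb2, Lck and Cttnbp2 are low genes that lie higher in the treated libraries, and Cav2, Gna12 and Arvcf lie lower.

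Of 22 cadherin, catenin and other adhesion genes 6 were in the table, and the catenin gene Arvcf, the only one tested, fell (log2 fold change -2.22, edgeR adjusted p = 4e-15). With no minimum the antigen gene Gpa33 rose and the tetraspanin gene Tspan32 fell (edgeR adjusted p = 2.9e-03 and 1.6e-40). Gpa33 had no count in 1 of the 3 treated libraries, and its call was lost without treated library 1 or untreated library 2 (edgeR adjusted p = 0.052 and 0.078). The cadherin genes Cdh1 and Cdh4 did not pass (edgeR adjusted p = 0.61 and 0.43), and Igsf5 had no count.

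By the table's own KEGG annotation, 5 genes belong to focal adhesion, Itga5 among them; of the 4 tested 2 rose and 2 fell. For regulation of the actin cytoskeleton, 9 genes with both chains among them, 4 were tested, and again 2 rose and 2 fell. Both tested genes of leukocyte transendothelial migration, Itgb2 and Gnai3, rose. Itgb2 was the tested gene among 4 annotated to cell adhesion molecules, and Itga5 was the gene annotated to ECM-receptor interaction. These lists are small and hold the chains themselves, and 83.0% of all tested genes were called, so their counts say nothing particular to them.

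Itgb2 is a leukocyte gene by its usual expression, so markers of leukocytes were looked at beside it. Of 31 such genes 4 were in the table. Lck rose and Tspan32 fell, while the myeloid genes Clec10a and Slfn4 had no count in any treated library. In untreated libraries 1, 2 and 3 Clec10a had counts of 8, 0 and 5, and Slfn4 had none. The summed FPKM of the 4 ran from 1.15 to 1.56 in treated libraries and from 1.39 to 1.74 in untreated ones, a sum made almost wholly of Lck and Tspan32, which moved in opposite directions. Defining markers such as Ptprc are not among the 99 genes, and the part of such cells in the result was not tested. In RNA from whole cultures, more cells that express a gene and more RNA per cell cannot be told apart.

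Of 14 fibroblast and endothelial markers, Fap, Bcl6b and Acvrl1 were in the table. Fap and Bcl6b had no count in any treated library and few in the untreated ones. Fap had counts of 0, 0 and 15 in untreated libraries 1, 2 and 3, and Bcl6b had 12, 0 and 4. Neither passed with no FPKM minimum (edgeR adjusted p = 0.16 and 0.15). Acvrl1, a receptor of the TGF-beta family, fell (log2 fold change -1.50, edgeR adjusted p = 3.3e-11). The summed FPKM of the 3 ran from 2.74 to 4.64 in treated libraries and from 9.97 to 10.1 in untreated ones, nearly all of it Acvrl1. Of 12 melanocyte and melanoma markers Ngfr was the one in the table. The label of the cells could not be checked against pigment genes here.

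The messages of both chains rose, but the promoter set used had no entry for Itgb2. The promoter of Itga5 alone is therefore shown. The sequence is from RefSeq, GRCm38.p6, chr15:103366742-103367041 on the minus strand, a window around the start of transcription, and 58.7% of it is G or C. The letters searched, on both strands, were GGGCGG (the GC box), CACGTG (an E-box), CATGTG (an M-box core), TGANTCA (the AP-1 motif), TATAAA (the TATA box), and GAGGAA and also AGGAAG (cores of ETS motifs, which can overlap each other). GGGCGG was found at bases 102 and 245 and GAGGAA at base 124, counted from the first base printed, all on the opposite strand. They are in capitals. Of 32851 promoters of that length 35.7% hold GGGCGG and 28.3% hold GAGGAA, so the matches are common ones. None of the other letters was found. The window bears no measurement here, and a match is not a site.
Itga5 promoter: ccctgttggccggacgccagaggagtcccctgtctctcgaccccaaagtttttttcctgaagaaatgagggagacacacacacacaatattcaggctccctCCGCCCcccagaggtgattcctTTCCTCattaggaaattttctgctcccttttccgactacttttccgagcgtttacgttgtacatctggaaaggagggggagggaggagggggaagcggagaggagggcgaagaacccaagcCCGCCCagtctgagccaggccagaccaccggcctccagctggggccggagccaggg

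Both chains rose in all alternatives that could be fitted. The log2 fold change of Itga5 ran from 0.66 to 0.81 and that of Itgb2 from 0.90 to 2.22. The lowest Itgb2 value came from log2(FPKM + 1), a pseudocount above its untreated level. TMM scaling raised the log2 fold changes of the tested genes by 0.13 to 0.14, and both chains rose with and without that shift. Without untreated library 1, the lowest for Itgb2, its log2 fold change was 1.74 (edgeR adjusted p = 1.2e-06). The largest adjusted p of Itgb2 among the alternatives came without untreated library 2 (log2 fold change 2.22, edgeR adjusted p = 2.3e-04). The size of its p-value thus depended strongly on the fit.

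**Figure D5:**
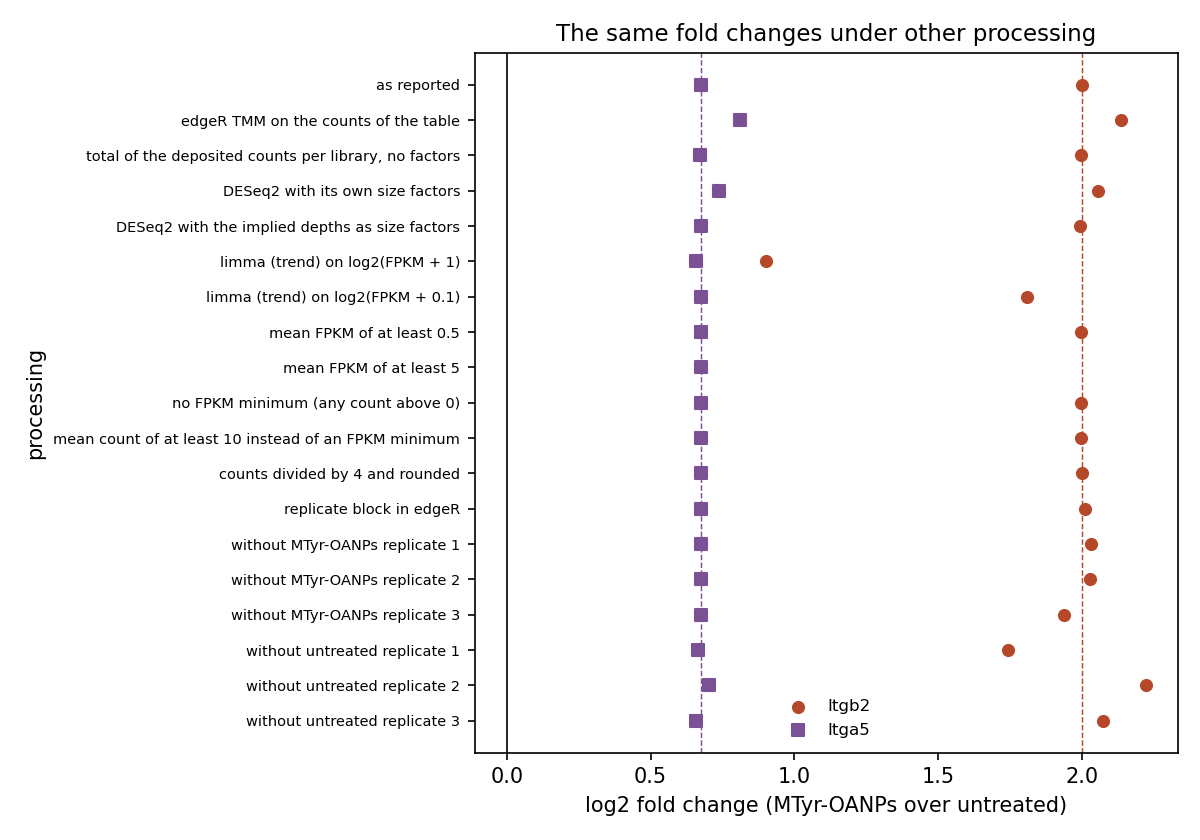
Log2 fold changes (MTyr-OANPs over untreated) of Itgb2 (circles) and Itga5 (squares) as reported (top) and under each alternative, dashed lines at the reported values. Itga5 stays between 0.66 and 0.81, and Itgb2 lies at 0.90 on log2(FPKM + 1) and between 1.74 and 2.22 elsewhere.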

How the data were processed

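Poly(A) RNA was sequenced as 2 × 150 bp pairs, per the labels' protocols. The authors' deposited table holds, per the file headers, whole-number counts beside FPKM for each library. CASAVA 1.4 and mm9 are named in the submitters' processing notes; of the aligner, counter, strand setting and annotation, nothing is given in the sources used here. The table's coordinates match GENCODE M21 on GRCm38 (86 of 99 genes at both ends, 13 at 1 end), so that build is used. A count of 0 was listed at 0.0001 FPKM in all 173 cases.

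Count over FPKM in 59 genes with counts of at least 50 gave the relative depths of the libraries. The GENCODE M21 exon lengths of 7 genes with a single annotated transcript set their scale. Itga5 and Itgb2, with 4 and 5 annotated transcripts, were not among those genes. The implied library sizes were 67414200 to 85233900 counts. Of 41 values from 1 to 20, 30 were multiples of 4. Totals over the 99 genes ran from 334160 to 421423. edgeR 4.0.16 (R 4.3.3) quasi-likelihood tests, two-sided, with implied library sizes, were fitted where mean FPKM reached 1 (53 genes), Benjamini-Hochberg adjusted, at a threshold of 0.05. SEs come from log2 FPKM within groups. limma 3.58.1, DESeq2 1.42.0, other scalings, other minimums, counts divided by 4, a replicate block and leaving out each library were alternatives. The fitting steps were also run on simulated counts. Those had no steps of 4 and the same underlying spread setting for all genes, so that run does not cover the low counts of Itgb2.

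Named genes were both chains, measured genes of 7 lists and 5 KEGG names, the 4 nearest profiles and the neighbours in fold change; 1 gene under this rule is counted but not reported by name. The members and lists were chosen with earlier results of these data known. Protein sequences were not used here.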

Additional observations from a re-analysis of the deposited data

How the results depend on the processing

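Direction and call were kept by Itga5 in all 18 alternatives (log2 fold change 0.66 to 0.81) and by Itgb2 in all 17 that gave a value (0.90 to 2.22); a minimum of 5 FPKM leaves Itgb2 out. Leaving out each library in turn gave 0.66 to 0.70 for Itga5, 1.74 to 2.22 for Itgb2, and 1.08 to 1.58 for their difference. The exact permutation test of that difference gave p = 0.1 in each case, the smallest p it can give with 1 library left out. On log2(FPKM + 0.1) the difference was 1.13. Genes called numbered 35 (42 tested) to 53 (66 tested), against 44, and 40 to 44 when 1 library was left out. TMM gave 21 higher and 20 lower against 20 and 24. The deviations of treated library 1 and untreated library 1 from their group means had a correlation of 0.309. For number 2 that correlation was 0.397, and for number 3 it was -0.00719. Where the numbers differed, it ran from -0.399 to 0.131. Numbers 1 and 2 lay above that range and number 3 within it. These values do not settle whether the numbers pair the libraries, and the main fit did not pair them. The replicate block gave 0.68 for Itga5, 2.01 for Itgb2 and 45 calls. Counts divided by 4 and rounded gave 0.68 for Itga5 and 2.00 for Itgb2. The low counts of Itgb2 limit the precision of its fold change, and the origin of the steps of 4 in the counts stays unknown.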
